A study of Mus musculus with 22 samples.

Results

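The genes described here are the mouse zinc finger genes named Zfp400 to Zfp999. They were taken by name from the RefSeq annotation of the GRCm38 (mm10) genome, as protein-coding genes on chromosomes 1 to 19 whose symbol is Zfp followed by exactly 3 digits from 400 to 999. This gave 234 of the 20558 protein-coding genes on these chromosomes, and no measured value entered the choice. The remaining 20324 protein-coding genes served as the comparison, and 161 of them are zinc finger genes with other names.

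The study asked how TERRA, the RNA transcribed from telomeres, affects where the chromatin remodeller ATRX binds and where DNA G-quadruplexes (G4, 4-stranded structures of guanine runs) form. Mouse ES cells of the female 16.7 line, a CAST/Ei x 129/Sv/Jae hybrid, received LNA gapmers (antisense oligonucleotides that trigger RNase H cleavage) against TERRA (TERRA KD) or with a scramble sequence (scramble KD) and were collected after 12 h. Feeder cells were removed before the gapmers were delivered, and all cells of both conditions come from this 1 line. ATRX, the histone mark H3K9me3 and G4 (with the BG4 antibody) were mapped by ChIP-seq and open chromatin by ATAC-seq, with 2 replicates of each condition and assay. The values are peaks called by the authors in each of the 16 libraries at a p of 0.01, so a gene is described by whether a peak touches it and by the share of its bases under peaks, and a gene without a peak is one whose enrichment could not be detected at that library's depth.

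Most of these genes encode KRAB zinc finger proteins. The tandem C2H2 fingers of such a protein recognise DNA, often within transposable elements, and its KRAB domain recruits the corepressor TRIM28, which brings in the H3K9 methyltransferase SETDB1 and HP1 proteins. The genes themselves lie in clusters of related copies, and their 3′ exons, which encode the finger arrays, are known as places where H3K9me3 and ATRX are found together in several cell types.

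Translated from the reference genome, the 234 genes encode 2509 fingers, with a median of 10 fingers per gene and at most 36, and 7 genes held no match to the finger pattern. A KRAB-type domain was matched in 136 genes, called KRAB genes below, and 98 had no match. The KRAB genes had a median of 12 fingers and the others 7. Of the fingers of KRAB genes, 96.5% lay in the last exon, against 59.7% of the fingers of the genes without KRAB, so the last exon is close to a map of the finger array for the former and less so for the latter. The median last exon was 2490.5 bp long, against 1030 bp in the other protein-coding genes, while the median gene body was 15.8 kb against 16.5 kb. The genes are spread unevenly, with 58 on chromosome 7, 27 on chromosome 17, 20 on chromosome 4 and 19 on chromosome 13.

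The finger units of 2 genes whose last exons lay almost wholly under H3K9me3 peaks in every library are shown, since such repeated units make up the finger array of the marked exon. Each line is 1 unit of 84 bases of coding sequence of GRCm38, with the codons of the 2 cysteines and 2 histidines that hold the zinc ion in capitals. The units of Zfp990 are on the + strand at chr4:145537157-145537240, chr4:145537493-145537576 and chr4:145538165-145538248, and the unit of Zfp640 is on the - strand at chr13:66671186-66671269.
Zfp990 finger 1: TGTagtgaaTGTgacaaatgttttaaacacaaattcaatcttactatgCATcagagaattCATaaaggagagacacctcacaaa
Zfp990 finger 5: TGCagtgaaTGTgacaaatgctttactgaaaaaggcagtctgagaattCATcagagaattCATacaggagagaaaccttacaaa
Zfp990 finger 13: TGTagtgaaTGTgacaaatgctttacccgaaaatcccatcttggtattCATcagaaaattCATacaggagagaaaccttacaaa
Zfp640 finger 1: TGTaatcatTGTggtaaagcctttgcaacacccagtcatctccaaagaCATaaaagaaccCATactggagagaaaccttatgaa
Over the 78 pairs of the 13 units of Zfp990 the median identity was 85.1%, from 79.8% to 100%. The 11 units of Zfp640 were 85.7% identical in the median, from 77.4% to 100%. Letter for letter, finger 9 of Zfp990 is the same as finger 5.

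Because related genes share sequence, reads from 1 copy can be placed on another, and the values were therefore read beside a count of repeated windows. Of all stretches of 140 bases (the shorter tag length in the file headers), a mean of 6.92% per last exon (over 233 of them) occurred at least 1 more time in the genome, and 171 genes had last exons in which every stretch was unique. The mean was 11.7% in KRAB genes and 0.313% in those without KRAB. In 15 genes, all of them KRAB genes, over 50% of the last exon was repeated. At the extreme were Zfp966, Zfp967 and Zfp968, with 1 coding sequence of 1458 bp in common, and Zfp965 and Zfp973, with 1 of 957 bp, all on chromosome 2. These 5 genes had an ATAC peak at the transcription start site (TSS) in all 4 libraries and no ATRX, H3K9me3 or G4 peak in any. In 4 pairs of genes the gene bodies overlap, so that 1 peak can count for both. The part of read placement in the results below was not tested, and values for genes of unique sequence are given beside the shares of each assay.

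The ChIP libraries differed in depth and in the number of peaks. ATRX libraries held 4104486 to 15506154 tags and 7321 to 41384 peaks, and the TERRA KD list was the larger at both replicate numbers. In the H3K9me3 libraries, replicate 1 had 25490 to 26414 peaks with medians of 2404 to 3120 bp, and replicate 2 had 74925 to 76213 short peaks with medians of 491 to 515 bp. The G4 libraries ran from 2961038 to 24588605 tags and from 140119 to 389434 peaks. The series holds 6 inputs, fewer than ChIP libraries. G4 replicates 1 and 2 of a condition had the same input tag count, 23359214 in scramble KD and 19824848 in TERRA KD. ATRX and H3K9me3 of the same condition and number also had equal input counts, from 3366921 to 28622103. Lists that share an input are not fully independent, and the part of the input was not tested. ATAC libraries were the most alike, with 5976014 to 7883648 tags. Of 6 ES cell markers, 5 or 6 had an ATAC peak at the TSS in each library, as had 4 or 5 of 6 fibroblast markers, so these peaks do not tell ES cells from feeder fibroblasts, whose part in the results was not tested. With 2 samples per condition, the exact permutation test (two-sided) cannot give a p below 0.333, so no difference between conditions could pass 0.05, and its p-values measure only the spread between these samples.

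Over all 234 genes, H3K9me3 was more frequent than on other genes in every library, but over the gene body this did not hold for the genes of unique sequence. A peak lay on the gene body of 32.9% and 38.03% of them in scramble KD replicates 1 and 2 and of 33.8% and 40.6% in TERRA KD replicates 1 and 2, against 15.1%, 23.2%, 14.1% and 23.1% of the other protein-coding genes. On the last exon the shares were 21.4%, 20.9%, 25.6% and 22.2%, against 2.42%, 2.46%, 2.42% and 2.51%. The zinc finger genes were thus above the others in 4 of 4 libraries on both features, with a mean difference of 17.4 percentage points over the gene body and 20.1 over the last exon (exact sign-flip test over the libraries, p = 0.125 for both, the smallest it can give). Last exons are longer here than elsewhere, but the share of bases tells the same. Peaks covered 16.5% and 9.75% of last-exon bases in the scramble KD libraries and 21.6% and 10.03% in the TERRA KD libraries, against 0.889% to 2.07% in the other genes.

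Repeated sequence moved with the gene-body result, and its part was not tested. In 88 genes every stretch of the gene body was unique, and these have a median body of 12.3 kb, against 15.8 kb over all 234, and include 34 KRAB genes. A peak lay on the body of 10.2% and 14.8% of them in scramble KD replicates 1 and 2 and of 12.5% and 13.6% in TERRA KD, below the other protein-coding genes in 4 of 4 libraries. By bases covered they were above the others in 4 of 4, at 5.599% and 1.46% in the scramble KD libraries and 7.30% and 1.98% in the TERRA KD libraries, against 1.75% and 0.991% and then 2.08% and 1.08%. Zinc finger genes with other names were also above the rest on the last exon, with a peak in 15.5% and 11.8% in the scramble KD libraries and 14.3% and 12.4% in the TERRA KD libraries.

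Between the conditions, H3K9me3 differed little on these genes. The share with a peak was on average 1.71 percentage points higher in TERRA KD over the gene body (p = 0.667, exact permutation test, n = 2 per condition) and 2.78 points higher over the last exon (p = 0.333). By replicate number the differences were 0.855 and 2.56 points over the gene body and 4.27 and 1.28 over the last exon. The gap between the TERRA KD replicates was 6.84 points over the gene body and 3.42 points over the last exon, larger than the mean difference in both cases. The gap between the scramble KD replicates was 5.13 points over the gene body and 0.427 points over the last exon, the latter smaller than the mean difference. On the last exon the conditions did not overlap, and over the gene body replicate 2 was the higher in both conditions.

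**Figure D1:**
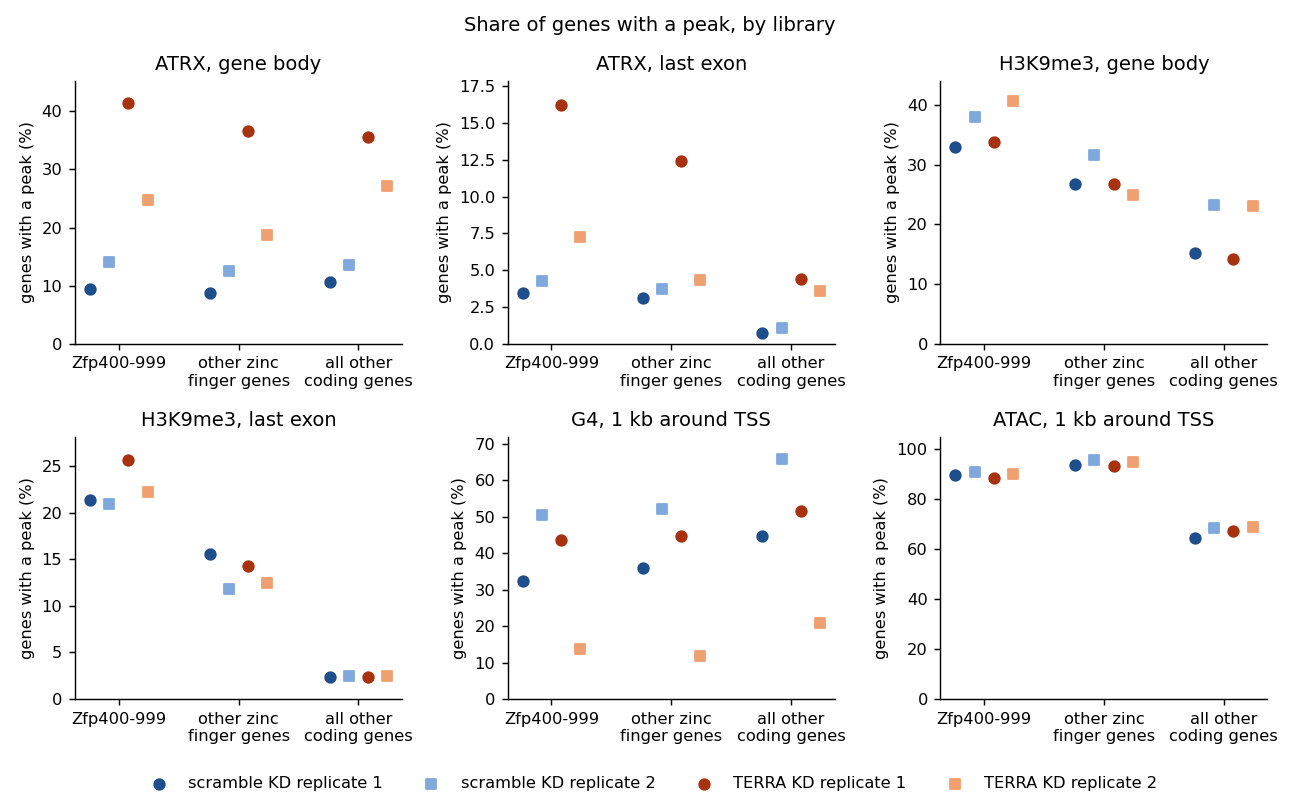
Percentage of genes with a peak (vertical axis) in each of the 4 libraries of an assay, for ATRX and H3K9me3 over the gene body and last exon and for G4 and ATAC within 1 kb of the TSS. Each point is 1 library of 1 gene set; on the last exon, H3K9me3 reached 20.9% to 25.6% of the Zfp400 to Zfp999 genes and 2.42% to 2.51% of the other protein-coding genes.

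H3K9me3 went with the KRAB genes. Their last exon had a peak in 32.4% of the genes in both scramble KD replicates, and in 40.4% and 33.1% in TERRA KD replicates 1 and 2. Among the genes without KRAB it was 6.12% and 5.10% in the scramble KD libraries and 5.10% and 7.14% in the TERRA KD libraries. The KRAB genes were higher in 4 of 4 libraries, and the ranges do not overlap (exact sign-flip test over libraries, p = 0.125). Over the gene body, peaks covered 21.4% and 11.6% of the bases of KRAB genes in the scramble KD libraries and 23.1% and 12.4% in the TERRA KD libraries, against 0.704% to 1.42% in the genes without KRAB. The 104 KRAB genes with at least 10 fingers had the mark on the last exon in 33.7% to 47.1% of cases per library. The 32 KRAB genes with fewer fingers had it in 12.5% to 28.1%. By last-exon bases covered, the former were at 26.4% and 14.9% in the scramble KD libraries and 35.9% and 15.3% in the TERRA KD libraries. The latter were at 9.98% and 15.7% and then 13.9% and 10.099%, higher in scramble KD replicate 2. By gene-body bases the latter were higher in all libraries but TERRA KD replicate 1, so the order depended on the measure.

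Within the gene, coverage rose toward the 3′ end. In KRAB genes the first 10% of the gene body was covered to 9.67% and 2.02% in scramble KD and to 9.95% and 3.18% in TERRA KD. The last 10% was covered to 23.6% and 15.6% in scramble KD and to 30.6% and 14.5% in TERRA KD. Every library was therefore higher at the 3′ end than at the 5′ end. The mark also lay beyond the KRAB genes. Their 5 kb downstream had a coverage of 18.15% and 10.25% in the scramble KD libraries and 22.99% and 10.08% in the TERRA KD libraries. Over all 234 genes, the last exon was more covered than the rest of the body. The factor was 1.67 and 1.86 in the scramble KD libraries and 2.11 and 1.79 in the TERRA KD libraries. For KRAB genes alone it was smaller, at 1.125 and 1.344 in the scramble KD libraries and 1.476 and 1.201 in the TERRA KD libraries. It was 2.303 to 5.146 in the genes without KRAB and 0.894 to 1.09 in the other protein-coding genes. The factors of the genes without KRAB rest on few last exons with a peak. These were 6 and 5 of 98 in the scramble KD libraries and 5 and 7 in the TERRA KD libraries. The other zinc finger genes, which include 76 KRAB genes, had factors from 1.81 to 2.99, so this shape is not particular to the names Zfp400 to Zfp999.

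**Figure D2:**
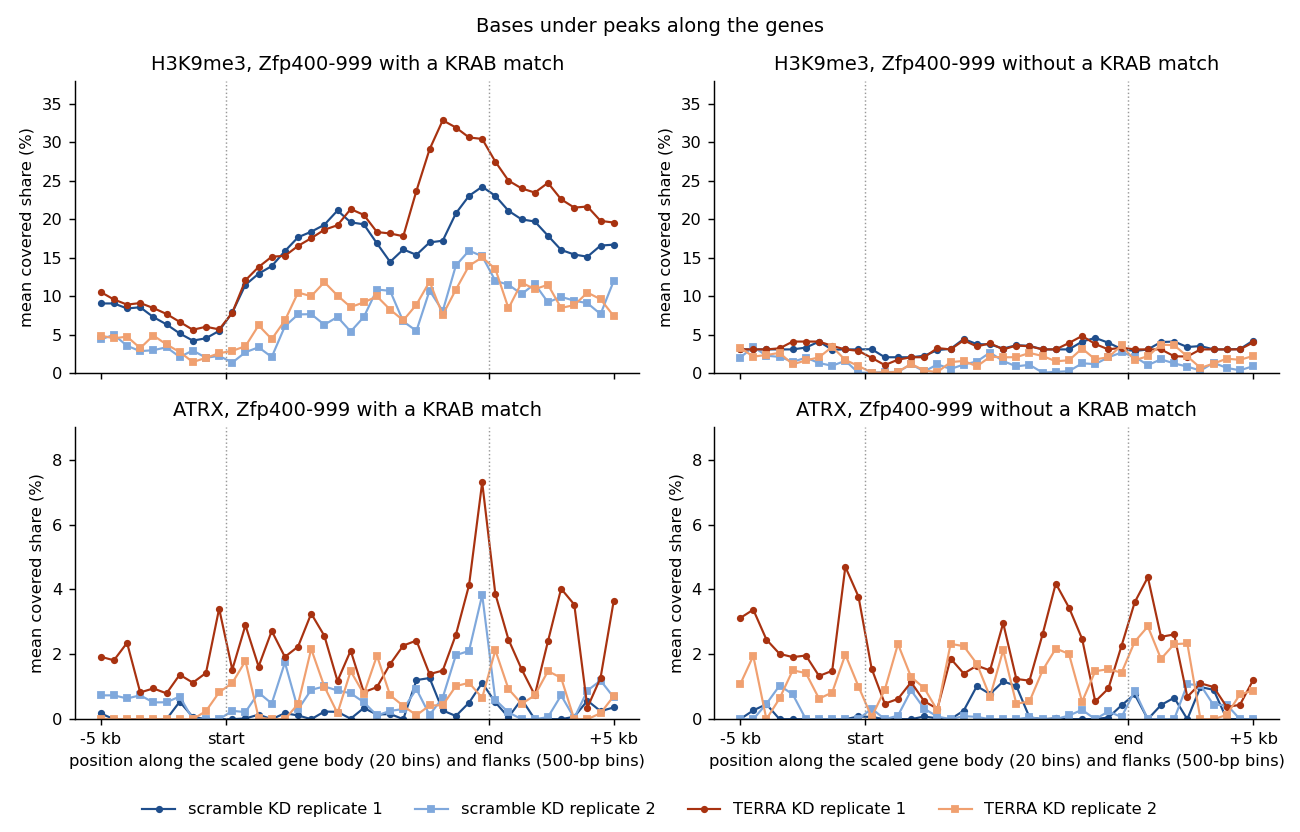
Mean share of bases under H3K9me3 (top) or ATRX (bottom) peaks (vertical axis, percent) along the scaled gene body and 5 kb on each side (horizontal axis, from upstream to downstream), for genes with and without a KRAB match, 1 line per library. In KRAB genes all 4 H3K9me3 lines are higher near the 3′ end than at the 5′ end, at 14.5% to 30.6% over the last 10% of the body, and the ATRX line of TERRA KD replicate 2 shows no such rise.

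An H3K9me3 peak lay on the last exon in all 4 libraries in 30 of the 234 genes (12.8%), against 0.715% of all protein-coding genes. Over the gene body this held for 57 genes (24.4%), against a background of 9.49%. Of the 30, 26 were KRAB genes, 27 had at least 10 fingers, and their median was 12.5 fingers, against 9.5 in the 160 genes whose last exon had no peak in any library. The 4 without KRAB were Zfp420, Zfp553, Zfp629 and Zfp706, named here after their values were seen, and Zfp706, a small protein known for promoting the exit of ES cells from self-renewal, has 1 finger. Of the 30, 20 lay outside the chromosome 4 cluster and 10 had last exons without any repeated stretch. Over the 171 genes with unique last exons the shares with a peak were 13.5% and 12.3% in the scramble KD libraries and 17.0% and 11.1% in the TERRA KD libraries, lower than over all 234 genes and still above the 2.42% to 2.51% of the other genes in every library.

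The 10 last exons with the highest mean H3K9me3 coverage were those of Zfp640, Zfp972, Zfp990, Zfp988, Zfp984, Zfp981, Zfp985, Zfp992, Zfp980 and Zfp534, and all 10 are KRAB genes. Zfp640 and Zfp972 were covered to 100% in all 4 libraries. Zfp990 was covered to 100% and 97.1% in scramble KD and to 100% in both TERRA KD replicates. The other 7 ranged from 75.9% to 100% across libraries, and 8 of the 10 lie in 1 cluster on chromosome 4. Of the 10, Zfp980 and Zfp972 have most of the last exon in repeated sequence, at 53.8% and 58.3%, and Zfp985 has none.

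The genes with a known function show how unlike each other single members are. Zfp809, which silences retroviruses by recognising their tRNA primer binding site, had 63.4% and 0% of its body under H3K9me3 in the scramble KD libraries and 67.5% and 3.60% in the TERRA KD libraries. Zfp445, which with ZFP57 maintains genomic imprints, was covered to 62.1% and 17.0% in scramble KD and to 79.1% and 19.4% in TERRA KD. In both genes replicate 1 was high and replicate 2 low whatever the condition, as are the lists themselves. Zfp932, a repressor of endogenous retroviruses, had 81.6% and 41.3% in the scramble KD libraries and 0% and 49.2% in the TERRA KD libraries, so that the mark was absent from TERRA KD replicate 1 alone. Zfp961 and Zfp600 carried the mark on the body in all 4 libraries, with 60.02% and 2.82% in scramble KD against 55.7% and 10.3% in TERRA KD for Zfp961, and 66.8% and 42.0% against 24.8% and 28.9% for Zfp600.
Zfp708, which binds retrotransposon sequences, was covered over the body to 19.1% and 4.46% in scramble KD and to 30.2% and 2.58% in TERRA KD. Zfp568, a repressor of a placental Igf2 promoter, and Zfp459 had no H3K9me3 peak in any library. Of the genes without KRAB, Zfp703, a developmental corepressor, and Zfp687 had no H3K9me3 and no ATRX peak. Also without KRAB, Zfp462, a regulator of ES cell pluripotency, had H3K9me3 on 1.60% to 8.41% of its body. Zfp423, a factor of the fat lineage with 27 matches to the finger pattern, had it on 0.188% to 0.895%. Zfp521, a relative of Zfp423, had it in TERRA KD replicate 2 alone, at 0.163%, and Zfp638, which also acts in silencing of retroviral DNA, in the replicate 2 libraries alone, at 1.80% in scramble KD and 0.492% in TERRA KD.

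Few genes differed in H3K9me3 in the same way in both replicates. A peak in TERRA KD alone (present in replicates 1 and 2 of TERRA KD, absent from both scramble KD libraries) was found on the last exon of 4 genes (1.71%, against a background of 0.161%), namely Zfp871, Zfp617, Zfp994 and Zfp442. The reverse, a peak in scramble KD alone, was found in 1 gene, Zfp663 (0.427%, background 0.0827%). Over the gene body the former pattern was found in Zfp617 and Zfp950, 2 genes or 0.855% (background 0.341%), and the latter in 1 gene, again Zfp663 (background 0.404%). All of these are KRAB genes, and the peaks of both replicates overlapped each other in each. Zfp442 had 47.9% and 7.13% of its last exon covered in TERRA KD and none in scramble KD, and Zfp663 had 70.5% and 16.8% covered in scramble KD and none in TERRA KD. The peaks behind them are weak in replicate 2, with 5 tags in Zfp442 and 5 in Zfp663. With only peaks of a -log10 p of at least 5, the 4 genes on the last exon became 1 and Zfp663 was no longer called.

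ATRX peaks were listed on more of these genes in TERRA KD than in scramble KD, as they were on genes in general and as the TERRA KD lists are longer (41384 against 7321 peaks at replicate 1 and 21718 against 13652 at replicate 2). A peak lay on the gene body of 9.40% and 14.1% of the 234 genes in scramble KD and of 41.5% and 24.8% in TERRA KD. The conditions did not overlap, and the mean difference was 21.4 percentage points, with 32.1 at replicate 1 and 10.7 at replicate 2 (p = 0.333, exact permutation test, n = 2 per condition). The other protein-coding genes went from 10.6% and 13.6% to 35.5% and 27.2%, a mean difference of 19.3 points. The difference between both sets of genes was 2.08 points and its sign differed between the replicate numbers (p = 1, exact permutation test). For the share with a peak on the gene body, no change particular to the zinc finger genes was therefore seen. The size of the difference depended on how many peaks were listed. It was 4.27 points with equal numbers of top-ranked peaks from each list, and 2.56 points with only peaks of a -log10 p of at least 5. Over the 88 genes with unique bodies the shares were 5.68% and 6.82% in the scramble KD libraries and 28.4% and 22.7% in the TERRA KD libraries. By gene-body bases under ATRX peaks, the 234 genes were above the others in 4 of 4 libraries (exact sign-flip test, p = 0.125). At replicate 1 this cover was 0.357% with scramble KD and 1.88% with TERRA KD, against 0.133% and 0.804% in the other genes. At replicate 2 it was 0.88% and then 0.972%, against 0.281% and 0.616%.

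On the last exon the zinc finger genes stood above the others in every ATRX library. Peaks touched 3.42% and 4.27% of last exons in the scramble KD libraries and 16.2% and 7.26% in the TERRA KD libraries, against 0.699% and 1.04% and then 4.39% and 3.59% in the other genes (exact sign-flip test over the 4 libraries, p = 0.125). The zinc finger genes with other names were also above these, with 3.11% and 3.73% in the scramble KD libraries and 12.4% and 4.35% in the TERRA KD libraries, so the trait is not particular to the 234 genes. The TERRA KD libraries were above the scramble KD libraries by 7.91 points on average, and this was 4.79 points more than in the other genes (p = 0.333 for both, exact permutation test). The difference of 7.91 points was 1.71 with equal numbers of top-ranked peaks and 1.28 with peaks of a -log10 p of at least 5. Most of it came from replicate 1, where the list of TERRA KD is the longest, with a difference of 12.8 points against 2.99 at replicate 2. By bases covered, the last exons went from 0.654% and 2.09% to 4.26% and 1.23%, so that the direction differed between the replicate numbers. In the other protein-coding genes they went from 0.169% and 0.305% to 1.19% and 1.14%. By this measure both sets were nearly alike in TERRA KD replicate 2. Last exons are longer here, with a median of 2490.5 bp against 1030 bp, and the part of length in the shares with a peak was not tested.

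The replicate numbers diverged in KRAB genes. They had ATRX on the last exon in 3.68% and 7.35% of cases in the scramble KD libraries and 19.9% and 5.88% in the TERRA KD libraries, up in replicate 1 and down in replicate 2. At replicate 2 this was a change from 10 to 8 genes. The 16 genes of the chromosome 4 cluster, all with KRAB, went from 6 to 1 there. The fall at replicate 2 was therefore confined to that cluster and not seen in the remaining KRAB genes. The genes without KRAB had it in 3.06% and 0% in the scramble KD libraries and 11.2% and 9.18% in the TERRA KD libraries, up in both. The difference between these changes was -1.32 points (p = 1, exact permutation test).

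The share of ATRX peaks that met an H3K9me3 peak was higher on these genes than on others. H3K9me3 also covered more of these gene bodies, and the part of this coverage in the shares was not tested. It lay on 10.45% and 5.65% of body bases in the scramble KD libraries and 11.24% and 5.99% in the TERRA KD libraries. For the other protein-coding genes this coverage was 1.75% and 0.991% and then 2.08% and 1.08%. Of the ATRX peaks that touch a gene body, 16 of 40 (40%) in scramble KD replicate 1 and 19 of 58 (32.8%) in scramble KD replicate 2 overlapped an H3K9me3 peak of the same condition and number. In TERRA KD it was 86 of 225 (38.2%) and 14 of 108 (13.0%). For peaks on other genes it was 10.3% and 9.75% in the scramble KD libraries and 15.4% and 7.83% in the TERRA KD libraries, lower in 4 of 4 libraries. The zinc finger genes with other names lay between both sets in 4 of 4 libraries, at 29.4% and 18.5% in the scramble KD libraries and 31.4% and 8.70% in the TERRA KD libraries. Counted by genes the order is the reverse over the body. Of the genes with H3K9me3 on the body, 22.1% and 28.1% also had an ATRX peak in the scramble KD libraries and 65.8% and 32.6% in the TERRA KD libraries, against 29.2% and 36.3% and then 74.1% and 51.3% of the other protein-coding genes with H3K9me3, so the zinc finger genes were lower in 4 of 4 libraries. Last exons with H3K9me3 had an ATRX peak in 6 of 50 and 7 of 49 cases in scramble KD and in 23 of 60 and 7 of 52 in TERRA KD, and last exons without H3K9me3 in 2 of 184, 3 of 185, 15 of 174 and 10 of 182. Among the other protein-coding genes, last exons with H3K9me3 had ATRX in 3.25% and 6.01% of cases in scramble KD and in 22.0% and 13.5% in TERRA KD, so that the sets had the same share, 13.5%, in TERRA KD replicate 2.

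By single genes, 22 of 234 (9.40%) had an ATRX peak on the gene body in TERRA KD alone, near the 8.21% of all protein-coding genes, and 0 had the reverse (background 0.321%). A peak in all 4 libraries was found in 5 genes (2.14%, background 2.82%), which were Zfp993, Zfp978, Zfp800, Zfp423 and Zfp469. On the last exon, 2 genes (0.855%, background 0.36%) had a peak in TERRA KD alone, 0 had the reverse (background 0.0195%), and 0 had a peak in all 4 libraries (background 0.00486%). Of the 22 genes, 9 were KRAB genes. With only peaks of a -log10 p of at least 5, none of the 22 and none of the 2 were called.

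In most of the 22 genes the TERRA KD replicates did not put the peak in the same place. The peaks of both replicates overlapped in 2 of them, Zfp933 and Zfp663, against 221 of 1666 (13.3%) among other genes with this pattern. Zfp933, the last gene of the chromosome 4 cluster, had an ATRX peak of 1981 bp with 38 tags in TERRA KD replicate 1 and of 1014 bp with 24 tags in replicate 2. The shorter peak lay within the longer one, at chr4:147838730-147839743 and about 9 kb into the gene from its TSS. In Zfp663 the overlap was 37 bp. The next genes by rank, Zfp960, Zfp775, Zfp521, Zfp964, Zfp710, Zfp869, Zfp992 and Zfp507, had peaks in TERRA KD alone that lay 406 to 14411 bp apart.
Of the 2 last exons, that of Zfp975 had the same place marked by both replicates, with peaks of 445 and 429 bp that overlapped by 429 bp and rested on 4 and 8 tags. In Zfp850 both peaks rested on 13 tags and lay 2148 bp apart. Zfp850 and Zfp975 also had H3K9me3 on the last exon in all 4 libraries, at 22.3% to 70.1% and 22.5% to 88.1% of its bases.

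The last exons with most ATRX were those of Zfp984, Zfp534, Zfp988, Zfp991 and Zfp930, all KRAB genes with H3K9me3 there in all 4 libraries. Zfp984 was covered to 0% and 98.3% in scramble KD and to 55.9% and 0% in TERRA KD. Zfp534 was covered to 0% and 67.4% in scramble KD and to 85.6% and 0% in TERRA KD. The other 3 had the same order, absent or lower in scramble KD replicate 1 than in TERRA KD replicate 1 and the reverse in replicate 2, so the change differs in sign between the replicate numbers in all 5. In Zfp930, which is on chromosome 8 and has no repeated stretch in its last exon, the values were 0% and 46.0% in the scramble KD libraries and 64.5% and 0% in the TERRA KD libraries.

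Genes were grouped into genomic clusters where at least 5 of them followed each other with gaps of at most 500 kb. This gave 11 clusters with 99 genes, 76 of them KRAB genes, and 135 genes outside. Last exons carried H3K9me3 in 27.3% and 28.3% of clustered genes in scramble KD and in 34.3% and 29.3% in TERRA KD, and outside in 17.0% and 15.6% and then 19.3% and 17.0%. ATRX lay on the last exon of 6.06% and 8.08% of clustered genes in scramble KD and of 24.2% and 8.08% in TERRA KD, and outside of 1.48% in both scramble KD replicates and of 10.4% and 6.67% in TERRA KD.

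The clusters were not alike. The cluster on chromosome 4 from Zfp990 to Zfp933 (chr4:145510759-147848418) holds 16 genes, all with KRAB, and was the most densely marked by the mean of the 4 libraries. Its last exons were covered by H3K9me3 to 63.0% and 72.8% in scramble KD and to 77.0% and 70.6% in TERRA KD, so no replicate stood apart here. The cluster on chromosome 9 from Zfp653 to Zfp810 had 77.4% and 10.2% in the scramble KD libraries and 65.3% and 11.4% in the TERRA KD libraries, following the replicate number. On chromosome 7, the 8 KRAB genes from Zfp977 to Zfp819 had 43.8% and 22.1% in the scramble KD libraries and 46.7% and 24.5% in the TERRA KD libraries, and within them Zfp936 reached 79.3% to 100% while Zfp819 had no peak.
The 15 KRAB genes on chromosome 13 from Zfp640 to Zfp493 were covered only to 3.48% to 13.7%, and the 14 genes on chromosome 17 from Zfp677 to Zfp945 to 1.30% to 15.7%, so clustering and KRAB alone did not go with a dense mark. The 6 genes on chromosome 7 from Zfp628 to Zfp580, none with KRAB, and the 6 on chromosome 6 from Zfp786 to Zfp775, 1 with KRAB, had no H3K9me3 on the last exon in any library. With gaps of at most 250 kb or 1 Mb there were 10 or 13 clusters.

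**Figure D3:**
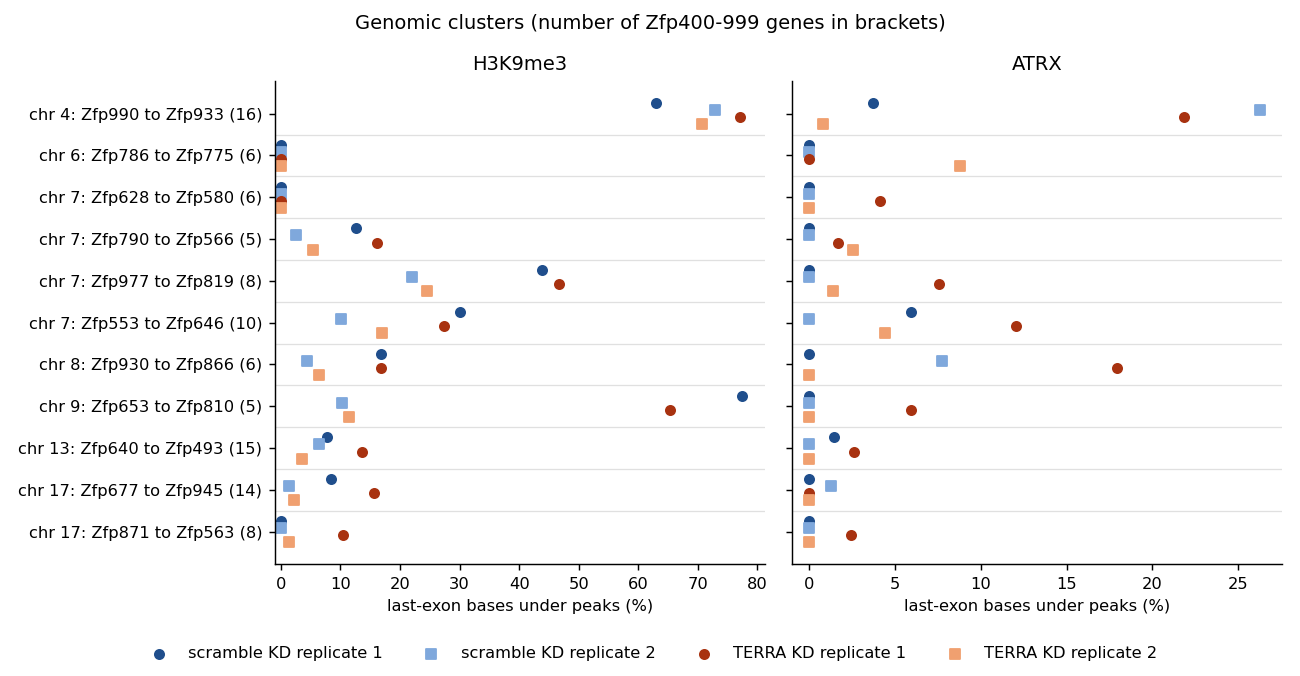
Share of last-exon bases under H3K9me3 (left) and ATRX (right) peaks (horizontal axes, percent) in the 11 genomic clusters (rows, named by chromosome, first and last gene), 1 point per library. For H3K9me3 the chromosome 4 cluster has all 4 points between 63.0% and 77.0%, whereas in the chromosome 9 cluster the replicate 1 points are at 65.3% and 77.4% and the replicate 2 points at 10.2% and 11.4%.

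In the chromosome 4 cluster, an H3K9me3 peak lay on the last exon of 11 and 13 of 16 genes in scramble KD and of 13 and 14 in TERRA KD, and on the gene body of 14 of 16 in all 4 libraries. ATRX took a different course in each replicate. Its peaks covered 3.71% and 26.3% of the last-exon bases in the scramble KD libraries and 21.9% and 0.784% in the TERRA KD libraries, which is up at replicate 1 and down at replicate 2. The number of last exons with a peak went from 2 to 9 at replicate 1 and from 6 to 1 at replicate 2. All 6 last exons with a peak in scramble KD replicate 2 also had one in TERRA KD replicate 1 and none in TERRA KD replicate 2. The last exons of this cluster had a median of 25.1% repeated stretches, from 0% to 100%, more than any other cluster.
Without these 16 genes, ATRX lay on the last exon of 2.75% and 1.83% of the remaining 218 genes in scramble KD and of 13.3% and 7.34% in TERRA KD. By bases covered these went from 0.445% and 0.439% to 3.06% and 1.26%, up at both replicate numbers, whereas with the cluster included the value was lower in TERRA KD at replicate 2. H3K9me3 lay on 17.9% and 16.5% of their last exons in scramble KD and on 21.6% and 17.4% in TERRA KD. Over the 171 genes with unique last exons, ATRX had 2.34% and 1.75% in the scramble KD libraries and 11.7% and 7.60% in the TERRA KD libraries.

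**Figure D4:**
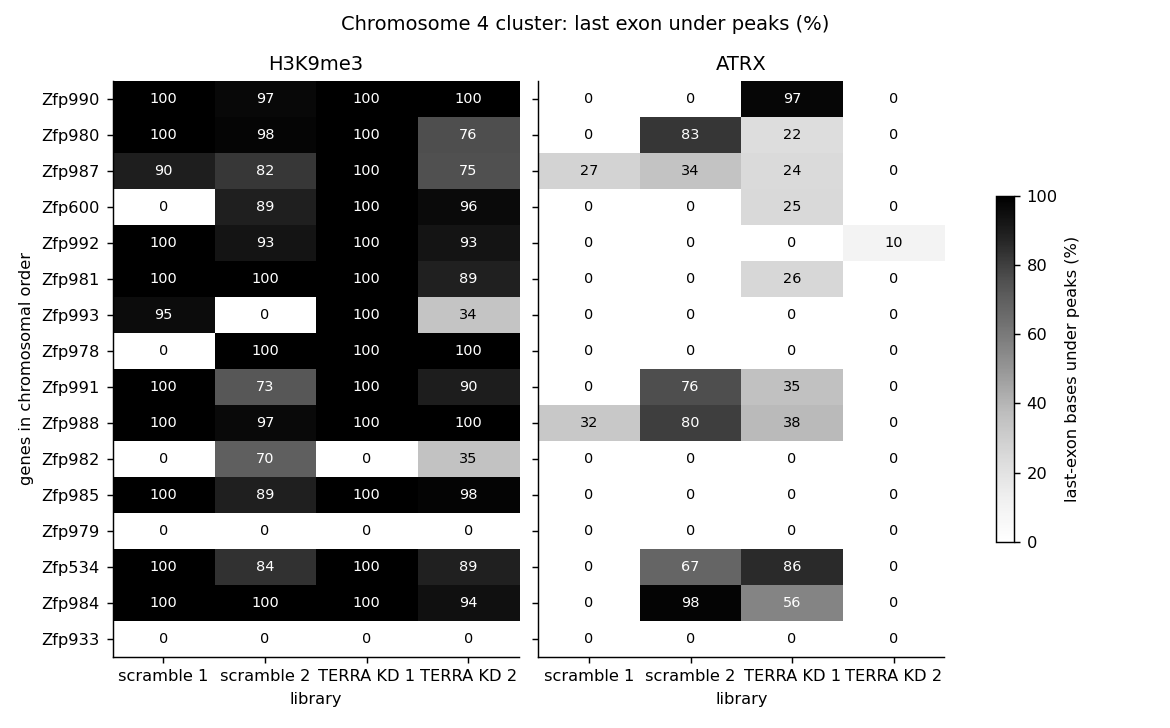
Share of the last exon under H3K9me3 (left) and ATRX (right) peaks (grey scale and printed number, percent) in the 16 genes of the chromosome 4 cluster (rows, in chromosomal order) and the 4 libraries (columns). H3K9me3 is present in all 4 columns in 10 of 16 rows, and the ATRX cells above 60% belong to TERRA KD replicate 1 and scramble KD replicate 2.

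At the TSS (1 kb on each side), G4 peaks were fewer on the zinc finger genes than on others, and the direction between conditions differed by replicate number. They were found in 32.5% and 50.4% of the genes in scramble KD and in 43.6% and 13.7% in TERRA KD, against 44.8% and 65.9% and then 51.7% and 20.8% of the other genes. The zinc finger genes were lower in 4 of 4 libraries (exact sign-flip test, p = 0.125). TERRA KD was 11.1 points higher at replicate 1 and 36.8 points lower at replicate 2, with a mean difference of -12.8 points (p = 0.667, exact permutation test, n = 2 per condition), and the TERRA KD library was the deeper at replicate 1 and the shallower at replicate 2, a part of depth that was not tested. Relative to the other genes the difference was 6.25 points (p = 0.333, exact permutation test). The 176 genes whose TSS window held no repeated stretch had a G4 peak in 37.5% and 56.3% of cases in the scramble KD libraries and 47.7% and 14.8% in the TERRA KD libraries, also below the other genes in 4 of 4 libraries.

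The low share came with the KRAB genes. G4 peaks lay at the TSS of 17.6% and 39.0% of KRAB genes in scramble KD and of 26.5% and 9.56% in TERRA KD, against 53.1% and 66.3% and then 67.3% and 19.4% of the genes without KRAB, lower in 4 of 4 libraries (exact sign-flip test, p = 0.125). The base composition differs as well, with a median GC content of 51.3% in the promoters of KRAB genes and 59.6% in those without KRAB. The last exons gave the same order, since G4 peaks covered 0.890% and 6.76% of last-exon bases of KRAB genes in the scramble KD libraries and 1.48% and 2.07% in the TERRA KD libraries, but 16.3% and 54.8% and then 30.05% and 28.5% in those without KRAB. G4 and H3K9me3 thus divided the genes in opposite ways, the former more frequent without KRAB and the latter with it.

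A G4 motif, here 4 or more runs of at least 3 G (GGG) with loops of 1 to 7 bases on either strand, was present within 1 kb of the TSS in 52.6% of the zinc finger genes, in 43.4% of the KRAB genes, in 65.3% of those without KRAB and in 56.9% of all protein-coding genes. Genes with the motif had a G4 peak in 44.7% and 55.3% of cases in the scramble KD libraries and 53.7% and 16.3% in the TERRA KD libraries. Without the motif it was 18.9% and 45.0% and then 32.4% and 10.8%, lower in each library. The telomeric hexamer TTAGGG, searched on both strands, was found in the same window of 57.3% of the zinc finger genes and 55.3% of all protein-coding genes.

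A G4 peak in scramble KD alone was found at 10 of the 234 genes (4.27%), below the 5.3% of all protein-coding genes. The reverse was found at 1 gene, Zfp493 (0.427%, background 0.219%), and a peak in all 4 libraries at 10 genes (4.27%, background 9.19%). The genes of the first kind were Zfp709, Zfp593, Zfp764, Zfp639, Zfp568, Zfp526, Zfp689, Zfp865, Zfp511 and Zfp428, and 8 of them held the motif. Peaks in all 4 libraries were at Zfp648, Zfp664, Zfp853, Zfp775, Zfp784, Zfp772, Zfp768, Zfp629, Zfp469 and Zfp641, of which 9 held the motif. Among the 79 genes with no G4 peak in any library, 27 did. The motifs of 3 genes of each kind are shown, to let their guanine runs be compared. Each is at most 30 bases, read in GRCm38 on the given strand upstream of the TSS or within an intron, with the runs of G in capitals.
Zfp568 (peak in scramble KD alone, chr7:29983911-29983935, + strand, upstream): GGGtcGGGccgcGGGtccttctGGG
Zfp865 (peak in scramble KD alone, chr7:5020679-5020707, + strand, intron): GGGGacccGGGttcctcGGGGGcGGGGGG
Zfp428 (peak in scramble KD alone, chr7:24507631-24507660, + strand, intron): GGGcctGGGGcattctGGGaaGGGcctGGG
Zfp641 (peak in all 4 libraries, chr15:98296187-98296205, + strand, upstream): GGGcGGGGGcGGGcacGGG
Zfp469 (peak in all 4 libraries, chr8:122230135-122230159, + strand, upstream): GGGGcGGGGcGGGGGGGGGGGGGGG
Zfp629 (peak in all 4 libraries, chr7:127614767-127614794, - strand, intron): GGGctttGGGagccGGGGacaGGGtGGG
Each of these lies inside the G4 peak of every library that had one at that gene. This holds for the motifs shown and not for all motifs of such genes. Those of Zfp511 and Zfp784 lie in no G4 peak. Those of Zfp639, Zfp593, Zfp526 and Zfp689 lie outside the peak of a scramble KD library that had one.

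The scramble KD peaks behind the 10 genes overlapped each other in 9, all but Zfp526, against 92.7% of the other genes with this pattern. Zfp709, the first by rank, had 41.7% and 49.7% of its TSS window under G4 peaks in scramble KD, resting on 9 and 45 tags, and none in TERRA KD. Zfp568 had 23.4% and 39.1%, on 4 and 24 tags, and none in TERRA KD. It was also among the 22 genes with ATRX peaks on the body in TERRA KD alone, though those peaks were 8992 bp apart. Only 4 of the 10 genes were called with peaks of a -log10 p of at least 5. At Zfp493 the peaks covered 34% and 27.7% of the window in TERRA KD.

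**Figure D5:**
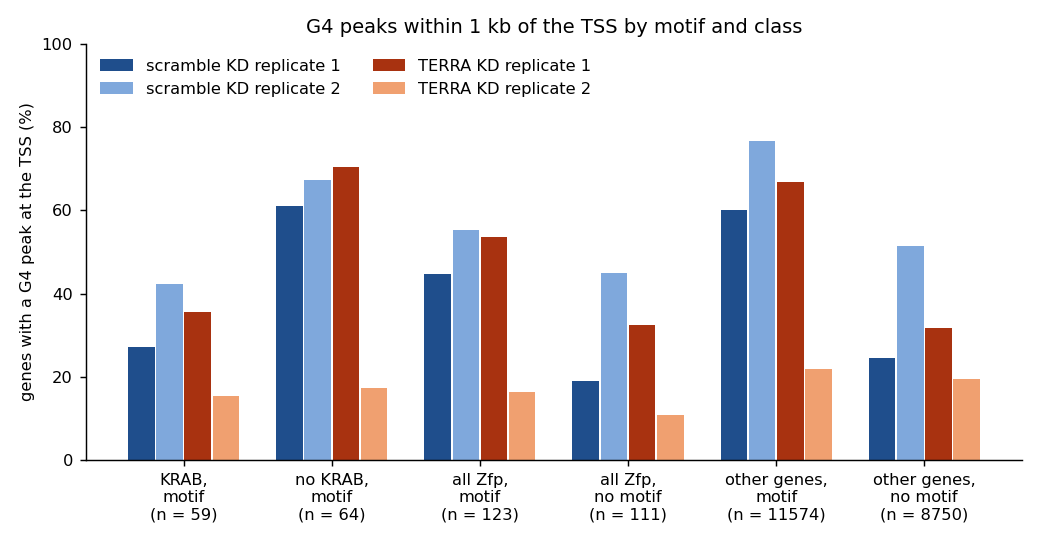
Percentage of genes with a G4 peak within 1 kb of the TSS (vertical axis) for classes of genes by G4 motif and KRAB match (horizontal axis), 1 bar per library. Among all zinc finger genes and among other genes, every library is higher with the motif, and TERRA KD replicate 2 has the lowest bar in each class.

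Most promoters of these genes were open. An ATAC peak lay within 1 kb of the TSS in 89.7% and 91.0% of the genes in the scramble KD libraries and 88.5% and 90.2% in the TERRA KD libraries, against 64.5% and 68.4% and then 67.3% and 68.9% of the other genes, higher in 4 of 4 libraries (exact sign-flip test, p = 0.125). TERRA KD and scramble KD differed by -1.07 points (p = 0.667, exact permutation test), less than the gap of 1.28 points between the scramble KD replicates. The 176 genes with a unique TSS window had 89.2% to 91.5%. Zinc finger genes with other names had 93.8% and 95.7% in the scramble KD libraries and 93.2% and 95.0% in the TERRA KD libraries. Open promoters are thus not particular to the 234 genes. KRAB genes had 89.0% to 91.2% and the genes without KRAB 87.8% to 90.8%, so accessibility did not divide the genes as H3K9me3 and G4 did. A peak was present in all 4 libraries in 203 genes (86.8%, background 62.7%) and in none in 17. A peak in TERRA KD alone was found at Zfp616 only (0.427%, background 0.506%), and a peak in scramble KD alone at Zfp652 only (0.427%, background 0.219%), where both peaks did not overlap.

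An open promoter and a marked 3′ end were found in the same genes. Of the 30 genes with H3K9me3 on the last exon in all 4 libraries, 20 (66.7%) had an ATAC peak at the TSS in all 4, against 90.7% of the 118 genes without H3K9me3 on the body in any library. Among the other protein-coding genes these shares were 69.2% and 60.5%. Among zinc finger genes with other names they were 10 of 10 and 92.3%, so the lower share of marked genes was not seen there. The chromosome 4 cluster, which holds 10 of the 30, was less open. It had 11 and 10 of 16 promoters open in the scramble KD libraries and 7 and 10 in the TERRA KD libraries, and Zfp987, Zfp992, Zfp981 and Zfp988 had no ATAC peak in any library. Zfp640, with its last exon covered to 100%, was open in all 4. These are counts over a mixed population of cells, and open and marked copies of a gene in different cells cannot be told apart.

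The 12 genes of the silencing pathway around KRAB zinc finger proteins, ATRX and H3K9 methylation were taken as a reference list. Of these, 11 had an ATAC peak at the TSS in all 4 libraries (background 62.7%), and none had H3K9me3 on the last exon in all 4 (background 0.715%). An ATRX peak on the gene body in TERRA KD alone was found at 3 of the 12 (background 8.21%), Cbx5, which encodes an HP1 protein, Daxx, the histone chaperone that works with ATRX, and Uhrf1, a reader of H3K9me3 and hemimethylated DNA, and the reverse at 0 (background 0.321%).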

How the data were processed

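Reads were trimmed (Trim Galore 0.5.0), aligned to GRCm38/mm10 (Bowtie2 2.3.4.1) and freed of duplicates by the authors, who called peaks per library at a p of 0.01 with MACS 1.4.3 (ATRX, H3K9me3) or MACS 1.4.2 (G4) against input, and with MACS 2.2.7.1 (ATAC) without input. For each ChIP peak the deposited lists give a tag count, a score derived from the p, and the fold enrichment as a ratio to the local background. For ATAC, the deposited lists give a pileup signal, a fold enrichment and the -log10 of the p. None is scaled between libraries, so none was compared between lists.

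Here a gene counted as marked when a peak shared at least 1 bp with its gene body (RefSeq, longest extent), the last exon of its transcript with the longest coding sequence, or 1 kb on each side of its TSS. Fingers and the KRAB domain were found by pattern in the translated coding sequence, the latter with a loose pattern that can miss or add domains. Conditions were compared with the two-sided exact permutation test over 4 libraries, and gene sets with the exact sign-flip test over libraries, whose smallest p is 0.125. The methods were tested on simulated data (Python 3.11.15, numpy 2.4.6, pandas 2.3.3, pyfaidx 0.9.0.4). The genes, lists and tests were chosen with earlier results of these data known.

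Genes are named by rule, as those of known function, up to 10 per pattern found in both replicates of 1 condition alone (ordered by the worse rank of the best peak), the 10 and 5 last exons most covered by H3K9me3 and ATRX, and the first, last and most marked gene of each cluster. Names of genes with a peak in all 4 libraries or in none were added after their values were seen. The alternatives used a -log10 p of at least 5, equal numbers of top-ranked peaks, an overlap of 50% of the peak, TSS windows of 500 and 2000 bp, trimmed gene bodies, the replicate block and each library left out. The exon with most fingers, genes by KRAB match, genes outside the chromosome 4 cluster and genes of unique sequence were added after seeing the data.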

Additional observations from a re-analysis of the deposited data

Results flagged for a closer look

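For 2 shares, the zinc finger genes moved one way at both replicate numbers and the other protein-coding genes the opposite way. The share with an H3K9me3 peak on the gene body was 0.855 and 2.56 percentage points higher in TERRA KD among the zinc finger genes and changed by -1.004 and -0.06 points among the others, a difference of 2.24 points (p = 0.667, exact permutation test). The share with an ATAC peak at the TSS changed by -1.28 and -0.855 points among the zinc finger genes and by 2.78 and 0.492 points among the others, a difference of -2.71 points (p = 0.333, exact permutation test). The design cannot give a p below 0.333.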

How the results depend on the processing

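Of 96 alternatives over the 6 shares compared between conditions, 88 kept the direction, 7 reversed it and 1 gave 0. The 88 include the replicate block of each of the 6 shares, which leaves the mean difference unchanged and so could not reverse it. ATRX kept its direction under all that were run, but with only peaks of a -log10 p of at least 5 its difference was 2.56 points on the gene body and 1.28 on the last exon, and with equal numbers of top-ranked peaks 4.27 and 1.71. H3K9me3 on the gene body reversed to -0.855 without scramble KD replicate 1 and to -1.71 without TERRA KD replicate 2, and on the last exon to -0.214 with 50% of the peak inside. G4 reversed to 2.14 without TERRA KD replicate 2. Relative to the other genes G4 was at 6.25, which is counted among the 7. There the zinc finger genes changed by -12.8 points and the others by -19.1, so both had the same direction. ATAC reversed to 1.28 with that -log10 p cutoff and to 1.01 for bases covered, and was 0 with a TSS window of 500 bp. The causes were not tested. Leaving out each replicate moved ATRX between 13.0 and 29.7 on the gene body and 3.42 and 12.4 on the last exon, H3K9me3 between -1.71 and 5.13 and between 1.07 and 4.49 there, G4 between -27.8 and 2.14, and ATAC between -1.92 and -0.214. With the replicate block, the mean differences are the same, 21.4 for ATRX on the gene body, with a sign-flip p of 0.5 (1 for G4), the smallest it can give being 0.5. It changed no call. Deviations of libraries with the same replicate number correlated over the 234 genes with r = 0.06 (ATRX), r = 0.61 (H3K9me3), r = -0.03 (G4) and r = 0.01 (ATAC), so over these genes same-numbered H3K9me3 libraries deviated together and those of the other assays did not. With 2 pairs and no statement in the labels that a number marks a shared batch, no assay was treated as paired; the H3K9me3 differences within a number were 0.855 and 2.56 points on the gene body and 4.27 and 1.28 on the last exon. With a -log10 p of at least 5, genes with a peak in TERRA KD alone fell from 22 to 0 and 2 to 0 (ATRX, body and last exon), 4 to 1 (H3K9me3, last exon) and 1 to 0 (G4), and those with a peak in scramble KD alone from 1 to 0 (H3K9me3, last exon), 10 to 4 (G4) and 1 to 0 (ATAC). With 50% of the peak inside, 1 became 2 (H3K9me3, last exon, scramble KD alone).

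The lists hold peaks without coverage, so weak enrichment is not seen, and their number depends on depth and input. The median ATRX peak of a library rests on 5 to 10 tags.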
